A study of Mus musculus with 16 samples.

Results

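The aldo-keto reductases described here are 10 mouse genes, Akr1c18, Akr1c14, Akr1c12, Akr1c13, Akr1cl, Akr1d1, Akr1b7, Akr1b3, Akr1b8 and Akr1a1, read from bulk RNA-seq of the adrenal gland. They were taken from the 54838 genes of the deposited count table by name, through their Ensembl identifiers in GENCODE mouse release 21, and they were selected on their RNA levels and fold changes in these same 16 libraries, which were already known. Their own levels and fold changes are therefore given as a description, and p-values are printed only for genes outside the list. Where it is said that some of the 10 passed or lost the threshold of the all-gene fit, that too is a description and supports nothing. All 10 had counts and all 10 passed the filter on low counts that left 18214 genes for testing.

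The adrenals came from 16 individual mice of 4 weeks on a mixed genetic background, in 4 groups of 4: female control, female Rspo1GOF, male control and male Rspo1GOF (shortened to GOF, a gain of function of Rspo1). R-spondin 1 is a secreted protein that strengthens WNT signalling by removing the ubiquitin ligases that degrade WNT receptors. The promoter or cell type that drives the extra Rspo1, and the alleles that the controls carry, were not given in the sources used here. Each library was 1 mouse, so the spread between libraries is a spread between animals.

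Aldo-keto reductases are NADPH-dependent enzymes that reduce ketones and aldehydes to alcohols, with some members that act on the double bond of steroids. In the adrenal they touch the steroid pathway at several points: inactivation of progesterone, reduction of steroid A rings, and removal of the aldehyde that is released when the cholesterol side chain is cut. In the mouse, Akr1c18 (20-alpha-hydroxysteroid dehydrogenase, which inactivates progesterone) is a classical marker of the X-zone, a transient inner layer of the cortex that regresses in males at puberty and in females during pregnancy.

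Female control adrenals contained very high Akr1c18 and Akr1d1 RNA, and male adrenals of either genotype contained almost none of either. With the Rspo1 gain of function, female adrenals lost almost all Akr1c18 RNA while Akr1d1 stayed high. Akr1b7 was lower and Akr1b3 higher in female GOF than in female controls. Akr1cl was higher in females than in males in both genotypes. Akr1c13 was higher in female than in male controls, the sexes overlapped in GOF, and group means of Akr1a1 stayed between 807 and 938 CPM.

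The regions just upstream of 5 of these genes are printed here because they are the ones whose levels part company: the pair that is high in female controls and separates in female GOF (Akr1c18 and Akr1d1), the near-identical neighbours Akr1c13 and Akr1c12, and Akr1b7, the member with a match to the binding motif of a steroidogenic factor. The sequences are from the RefSeq table of mouse build GRCm38.p6, which held 9 of the 10 genes, and each line ends at the base before the start of the gene in GENCODE mouse release 21, which for Akr1b7 lies 28 bases before the RefSeq start. They are Akr1c18 at chr13:4150655-4150896 on the minus strand, Akr1d1 at chr6:37529923-37530172 on the plus strand, and Akr1b7 at chr6:34412112-34412333 on the plus strand. Capitals in the Akr1b7 line mark an NR5A half-site, and no other letters of these lines matched a searched string exactly.
Akr1c18: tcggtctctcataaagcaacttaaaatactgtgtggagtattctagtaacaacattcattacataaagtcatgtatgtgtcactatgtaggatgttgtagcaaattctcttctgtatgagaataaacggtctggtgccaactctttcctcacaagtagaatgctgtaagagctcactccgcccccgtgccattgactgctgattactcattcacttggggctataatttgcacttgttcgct
Akr1d1: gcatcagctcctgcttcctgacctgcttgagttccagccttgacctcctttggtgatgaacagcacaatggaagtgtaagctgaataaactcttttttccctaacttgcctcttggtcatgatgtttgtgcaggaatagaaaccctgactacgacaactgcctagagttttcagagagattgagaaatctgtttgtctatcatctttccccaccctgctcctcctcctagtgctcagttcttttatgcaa
Akr1b7: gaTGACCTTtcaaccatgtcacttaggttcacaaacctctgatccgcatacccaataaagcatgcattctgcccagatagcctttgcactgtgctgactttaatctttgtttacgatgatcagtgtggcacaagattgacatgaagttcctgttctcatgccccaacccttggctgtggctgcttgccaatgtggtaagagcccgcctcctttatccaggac

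The 3 motifs were searched on both strands. The half-site of NR5A receptors, such as steroidogenic factor 1, was AAGGTCA. The TATA box was searched as TATAAA. The core of the TCF/LEF factors, which bind DNA for WNT signalling, was searched as CTTTGA. None of the 3 strings contains another. Only these exact strings were searched, so a window without a match can still hold a variant of a motif. Windows ran from 250 bases before to 50 bases after the RefSeq start. Of 32841 such mouse windows, 4.72% held the NR5A half-site, 13.6% the TATA box and 16% the TCF/LEF core. Among the 9 genes, Akr1b7 held an NR5A half-site whose first base lay at -248 from the RefSeq start. Akr1b8 held a match to the TATA box string whose first base lay at -159 from the RefSeq start. Whether either match acts as a site was not tested. The other 7 windows held none of the 3 strings.

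Akr1c13 and Akr1c12 are shown together because they are close copies in sequence and far apart in level. Their upstream regions, chr13:4190937-4191149 on the plus strand and chr13:4279434-4279649 on the minus strand, were 93.5% identical over 217 alignment columns, with 9 mismatches and 5 gap columns. Capitals mark the bases that differ or have no partner in the other line.
Akr1c13: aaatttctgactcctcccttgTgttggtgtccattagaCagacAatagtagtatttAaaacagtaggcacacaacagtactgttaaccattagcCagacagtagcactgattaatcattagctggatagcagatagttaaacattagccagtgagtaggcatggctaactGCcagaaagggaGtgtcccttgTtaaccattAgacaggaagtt
Akr1c12: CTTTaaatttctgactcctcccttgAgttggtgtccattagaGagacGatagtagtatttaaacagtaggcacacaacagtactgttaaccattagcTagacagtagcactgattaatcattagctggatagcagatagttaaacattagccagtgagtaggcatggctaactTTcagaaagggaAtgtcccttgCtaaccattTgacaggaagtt

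The 10 genes lie on 4 chromosomes. Coordinates are those of GENCODE mouse release 21 (GRCm38), and the build behind the deposited tables was not given in the sources used here. A cluster on chromosome 13 holds Akr1c14 (4049011 to 4090688), Akr1c18 (4132615 to 4150654), Akr1c13 (4191150 to 4205596) and Akr1c12 (4268176 to 4279433). A cluster on chromosome 6 holds Akr1b3 (34302434 to 34317478), Akr1b8 (34354119 to 34368463) and Akr1b7 (34412334 to 34423142), with Akr1d1 (37530173 to 37568815) farther along the same chromosome. Akr1cl is on chromosome 1 (65012689 to 65032759) and Akr1a1 on chromosome 4 (116636510 to 116651680). All 10 are annotated as protein-coding, and values are for whole genes, not for separate transcripts.

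Libraries held 31275146 to 43003968 counts, and values below are counts scaled to a common library total after TMM normalisation (CPM) unless FPKM, the deposited value per gene length, is named. Rspo1 ran from 354 to 532 CPM in female GOF and from 535 to 972 CPM in male GOF, against at most 40.6 CPM in female and 48.2 CPM in male controls. The levels of Xist and Ddx3y matched the labelled sex in all 16 libraries. Male control 2 stood apart with a summed level of 15 liver markers of 10756 CPM, against at most 1046 CPM in any other library, and female controls 1 and 3 had 1620 and 267 CPM of 12 kidney tubule markers, against at most 37.2 CPM elsewhere. The summed level of 5 medulla markers was 4612 to 10614 CPM in female controls and 189 to 748 CPM in female GOF, and 7402 to 10988 CPM in male controls and 381 to 862 CPM in male GOF. The part of these marker shifts in the values below was not tested, except where a value without a library is given. Of the cortex zones, 4 zona fasciculata markers summed to 6865 to 12559 CPM over all libraries, and within the list, with GOF in females, Abcb1b went from 3911 to 1294 CPM, Srd5a2 from 109 to 313 CPM, Mc2r from 211 to 316 CPM and Cyp11b1 from 4592 to 5922 CPM. The 5 zona glomerulosa markers summed to 1070 to 1175 CPM in female controls and 933 to 1135 CPM in female GOF, and to 1054 to 1478 CPM in male controls and 426 to 566 CPM in male GOF. Within that list, with GOF in females, Wnt4 went from 349 to 563 CPM, Dab2 from 437 to 374, Cyp11b2 from 231 to 26.5, Hsd3b6 from 79.1 to 28.9 and Agtr1b from 12.9 to 2.23 CPM. The 3 capsule markers were lower with GOF, at 51.8 to 68.1 against 90.4 to 118 CPM in females and 73.3 to 84.8 against 132 to 152 CPM in males. The 5 fat markers were also lower, at 328 to 527 against 773 to 1208 CPM in females and 281 to 367 against 1038 to 2451 CPM in males. The 5 macrophage markers summed to 57.6 to 119 CPM in female GOF against 41.9 to 85.7 CPM in female controls, and to 133 to 285 against 77.1 to 128 CPM in males. Male control 2 also had 66.7 CPM of 5 skeletal muscle markers, against at most 4.13 CPM in any other library.

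In females, 3 of the 10 genes passed the threshold between GOF and control (an adjusted p under 0.05 in the quasi-likelihood test of edgeR, fitted over all genes), beside 39.6% of all tested genes, and 6 of 10 had groups that did not overlap, beside 37.8%. In males, 5 passed, beside 36.9%, and 1 did not overlap, beside 33.1%. Between the sexes in controls, 5 passed, beside 23.4%, and 5 did not overlap, beside 25.3%. In GOF adrenals, 4 passed between the sexes, beside 29.6%, and 5 did not overlap, beside 29.1%. The count in females was 7 when only the 8 female libraries were fitted, and that in males was 2 when only the male libraries were fitted, and also 2 without male control 2. Because the genes were picked with such results known, nothing is read from these counts. The median log2 fold change of the 10 genes against that of all tested genes was -0.31 against 0.05 for GOF in females, -0.6 against 0.01 for GOF in males, 0.15 against 0.08 for males against females in controls, and -0.26 against 0.03 for the sexes in GOF. Leaving out male control 2 gave a median of the 10 of 0.04 for GOF in males and of -0.3 for the sexes in controls. Leaving out male control 1 gave -0.2 and -0.08.

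**Figure D1:**
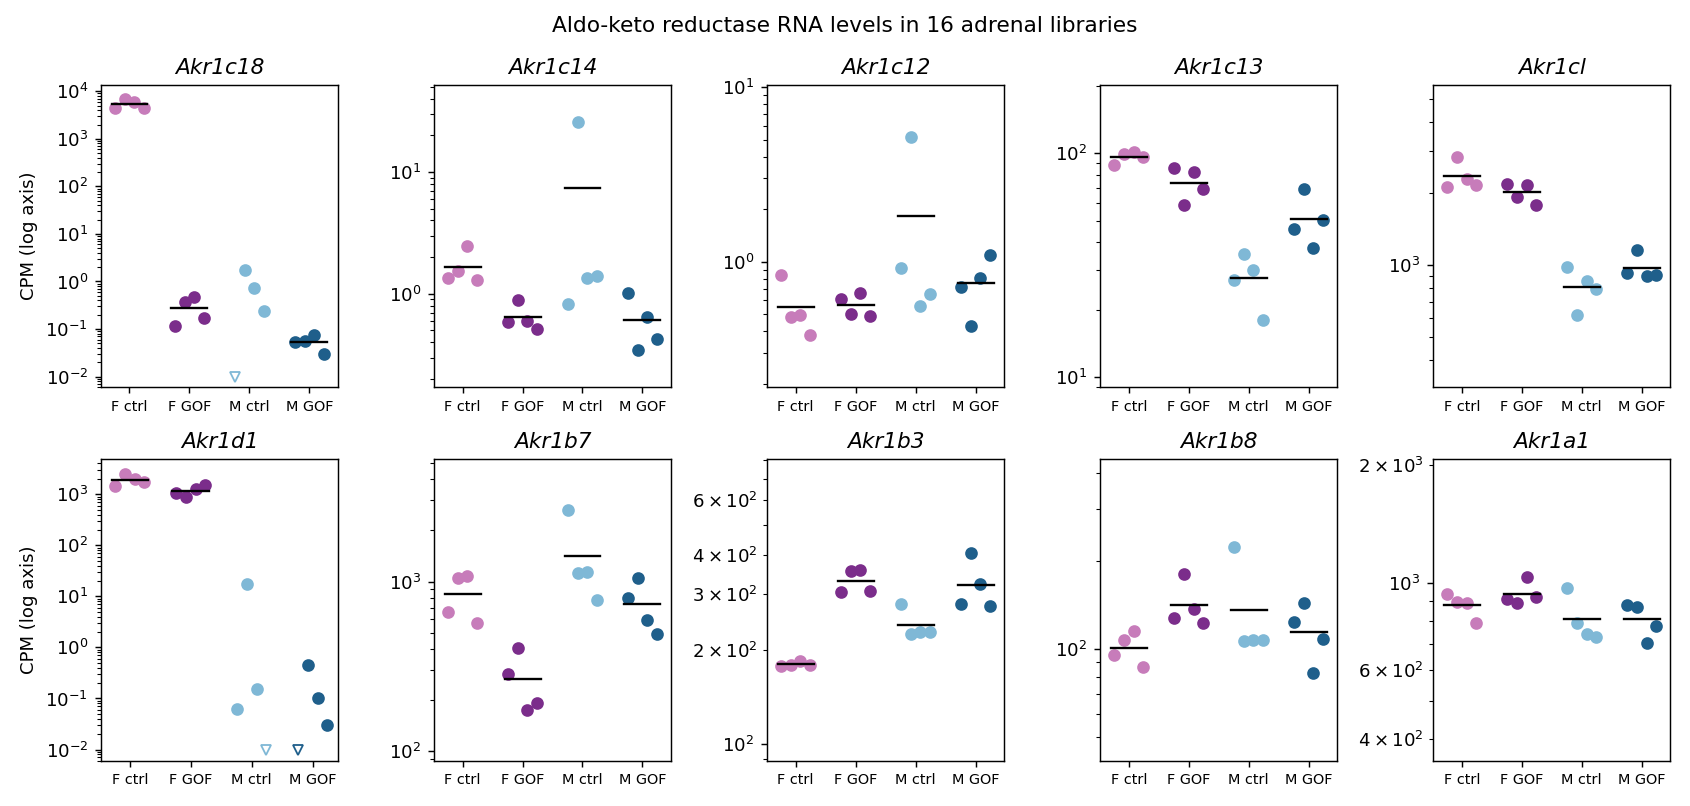
CPM of each of the 10 genes in the 16 libraries, on log axes with a separate range per gene. Each point is 1 library, grouped as female control, female GOF, male control and male GOF (F or M, ctrl or GOF), the line is the group mean where no library is at 0 counts, and open triangles mark libraries at 0 counts. Akr1c18 is high in the 4 female controls alone, and Akr1d1 in all 8 female libraries.

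Akr1c18, the progesterone-inactivating enzyme, stood at 4553, 6813, 5830 and 4453 CPM in the 4 female controls. In the 4 female GOF adrenals it stood at 0.117, 0.366, 0.478 and 0.172 CPM, which is 4 to 16 counts per library. The 2 groups were far apart, with means of 5412 ± 1125 CPM (SD, 4 mice) and 0.283 ± 0.168 CPM (SD, 4 mice), a ratio of 19111 and a log2 fold change of -14.19 ± 0.73 (SE). In female controls it was the most abundant of the 10 by FPKM, at 4518 ± 848, and it made up 49.3% ± 1.43 (SD, 4 mice) of their summed FPKM. In female GOF it had the lowest mean, at 0.247 ± 0.145 FPKM, and overlapped Akr1c14 (0.315 ± 0.0838).

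Male adrenals had Akr1c18 near the limit of counting in both genotypes. The male controls read 0, 1.76, 0.742 and 0.245 CPM, from 0 to 60 counts, and the highest was male control 2. The male GOF libraries read 0.053, 0.0572, 0.0751 and 0.0302 CPM, which is 1 to 3 counts each. A count of 3 corresponds to between 0.0687 and 0.0968 CPM in these libraries and is taken as the floor per library, an allowance for counting error only. The means were 0.686 ± 0.777 CPM in male controls and 0.0539 ± 0.0185 CPM in male GOF (SD, 4 mice), and the groups overlapped. The mean of male controls was 0.329 CPM without male control 2, and the gene no longer passed the threshold in males without that library.

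Male controls had 7895-fold less Akr1c18 than female controls, a log2 fold change of -12.94 ± 0.689 (SE), where the male mean rests on 0, 60, 24 and 9 counts. Without male control 2 it was -14.0 ± 0.603. Female GOF adrenals, at 0.117 to 0.478 CPM, lay inside the range of male controls. The interaction of sex and genotype, the male minus the female GOF effect, was 10.63 ± 2.49 (SE) on the log2 scale, where male GOF values were at the floor. For the interaction, 2 of the 10 genes passed (Akr1c18 and Akr1c13), beside 4.21% of all tested genes, and Akr1c18 no longer passed without female control 3 or without any 1 of the male GOF libraries.

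The 2 X-zone markers examined were both lower in female GOF than in female controls, Pik3c2g by far more than Thrb. Pik3c2g, a phosphoinositide kinase gene expressed in the X-zone, was 530 ± 49.9 CPM in female controls and 0.168 ± 0.268 CPM in female GOF (SD, 4 mice), a log2 fold change of -11.68 ± 0.744, adjusted p 2.63e-07 in the edgeR test. Thrb, the thyroid hormone receptor beta, fell from 195 ± 25.7 to 78.6 ± 24.1 CPM, by 1.31 on the log2 scale, adjusted p 6.26e-05 by edgeR. The 2 together summed to 669 to 786 CPM in female controls, 50.8 to 109 CPM in female GOF and 25.0 to 39.4 CPM in male libraries. In bulk tissue, fewer cells of a type and less RNA per cell cannot be told apart.

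Over the 16 libraries, the 3 genes outside the list whose log2 level was most like that of Akr1c18 were Pik3c2g (Pearson r = 0.992), Ssu2 (0.978) and Cd1d1 (0.975). Ssu2 went from 19.4 CPM in female controls to 0.275 CPM in female GOF. Cd1d1, an antigen-presenting molecule for lipids, went from 559 to 70.5 CPM and stood at 49.0 and 35.1 CPM in male control and male GOF. These likenesses, and those given for the other genes, run across group differences that all libraries share and carry no test.

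Akr1d1 is the steroid 5-beta-reductase, known chiefly from the liver, where it acts in bile acid synthesis. The female controls read 1472, 2483, 2018 and 1729 CPM. The female GOF adrenals read 1069, 899, 1238 and 1493 CPM. The ranges touched: the highest GOF library lay just above the lowest control, and the means were 1926 ± 433 and 1175 ± 253 CPM (SD, 4 mice), 1.64-fold apart. The log2 fold change was -0.71, with an SE of 0.962 in the fit of all 16 libraries and of 0.191 in a fit of the 8 female libraries alone.

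Males were nearly without Akr1d1. The male controls read 0.0615, 17.2, 0.155 and 0 CPM, and the male GOF libraries 0, 0.457, 0.1 and 0.0302 CPM. The single male library with a clear signal was male control 2, the library rich in liver markers, and its 17.2 CPM came from 588 counts, against at most 5 counts in the other 3 male controls. Without it the male control mean was 0.072 CPM in place of 4.36 CPM.

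The sex difference in Akr1d1 was present in both genotypes. Male controls had 442-fold less than female controls, with a log2 fold change of -8.79 ± 1.36 (SE), and -14.69 ± 0.671 without male control 2. Male GOF had 7997-fold less than female GOF, with a log2 fold change of -12.95 ± 1.71 (SE), where the male mean rests on 0, 16, 4 and 1 counts. Without male GOF 2, the library with 16 counts, the male GOF mean was 0.0435 CPM in place of 0.147 CPM, and the log2 fold change was -14.55. Within males, the log2 fold change of GOF against control was -4.88 ± 1.6 (SE), and it turned to 1.03 ± 1.09 without male control 2, where every library left had at most 16 counts. The 15 liver markers summed to 176 to 271 CPM in female controls and to 26.0 to 64.2 CPM in female GOF. Male control 2 had 10756 CPM of these markers and 17.2 CPM of Akr1d1. The part of liver transcripts in the Akr1d1 values was not tested.

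**Figure D2:**
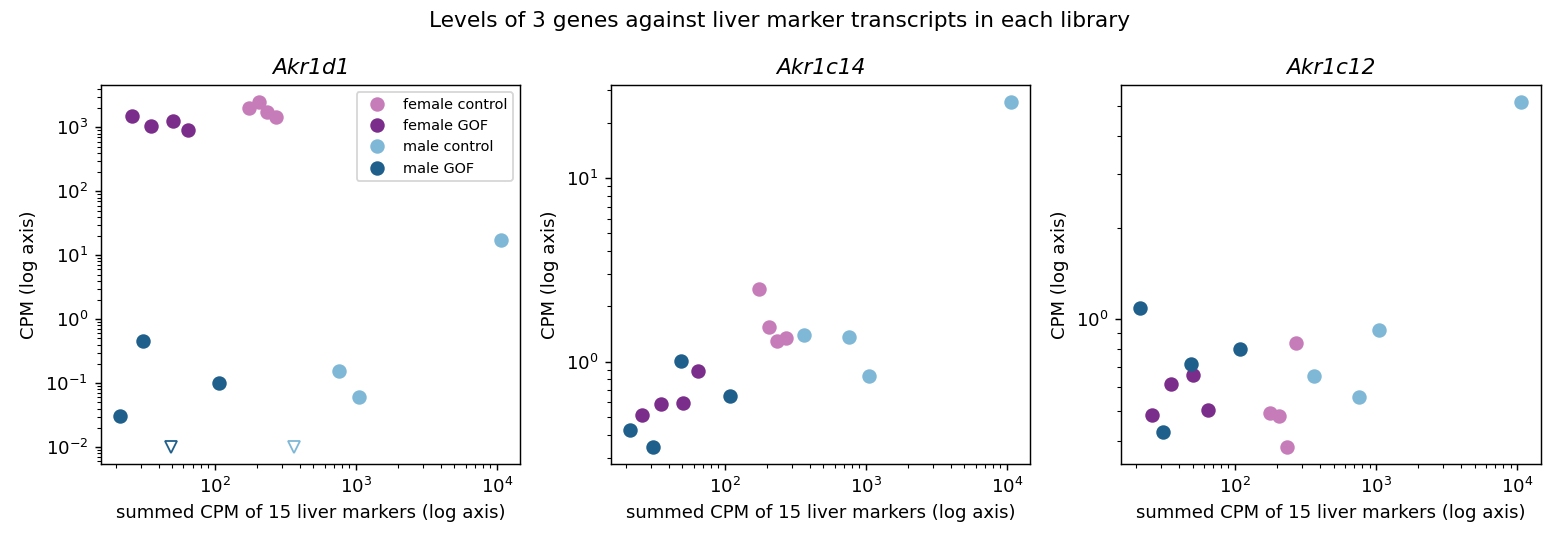
CPM of Akr1d1, Akr1c14 and Akr1c12 in each library (log axis) against the summed CPM of 15 liver markers in the same library (log axis). Each point is 1 library, coloured by group, and open triangles are libraries at 0 counts. Male control 2 is the point at 10756 CPM of liver markers. The 8 female libraries lie at 899 to 2483 CPM of Akr1d1 and 26.0 to 271 CPM of liver markers.

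The ratio of Akr1d1 to Akr1c18 by FPKM shows how the pair separated. In female controls the ratio was between 0.239 and 0.287, so each of the 4 adrenals had several times more Akr1c18 than Akr1d1. In female GOF it was between 1815 and 6764, with a median of 4178. The denominator in female GOF rests on 4 to 16 Akr1c18 counts per library.

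Genes most like Akr1d1 over the 16 libraries were Ggt6 (Pearson r = 0.974), Fam210a (0.967) and Sin3b (0.965). Ggt6, a gamma-glutamyltransferase, read 7.69 and 11.3 CPM in female control and GOF and 0.338 and 0.281 CPM in male control and GOF. Sin3b, a corepressor subunit, read 207 and 208 CPM in females and 99.8 and 105 CPM in males. In both genes, as in Akr1d1, the means of both female groups lay above those of both male groups.

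Akr1cl is a family member whose product is less studied, and it was among the most abundant of the 10 in every group. The female controls read 2124, 2852, 2288 and 2173 CPM and the female GOF adrenals 2188, 1926, 2166 and 1782 CPM. The male controls read 983, 613, 856 and 790 CPM and the male GOF adrenals 922, 1153, 895 and 909 CPM. All 8 female libraries lay above all 8 male libraries, while GOF and control overlapped in both sexes.

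Males had 2.91-fold less Akr1cl than females in controls, a log2 fold change of -1.54 ± 0.146 (SE), and 2.08-fold less in GOF, at -1.06 ± 0.144. The GOF effect was -0.23 ± 0.143 in females and 0.26 ± 0.143 in males on the log2 scale, and the interaction was 0.49 ± 0.202 (SE). In female GOF, with Akr1c18 gone, Akr1cl was first by FPKM at 1598 ± 145 (SD, 4 mice). The genes most like it were Elfn1 (Pearson r = 0.964), Cdkn1c (0.96) and Prr16 (0.955). Cdkn1c, an inhibitor of cyclin-dependent kinases, read 221 and 198 CPM in female control and GOF and 44.7 and 40.9 CPM in male control and GOF.

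Akr1c13 was lower with GOF in females and higher with GOF in males. The female controls read 88.7, 99.5, 101 and 96.3 CPM and the female GOF adrenals 86.0, 58.8, 82.1 and 69.0 CPM, without overlap. The male controls read 27.2, 35.5, 30.0 and 18.0 CPM and the male GOF adrenals 46.0, 69.3, 37.5 and 50.1 CPM, also without overlap. The means moved towards each other, from 96.5 ± 5.58 against 27.6 ± 7.31 CPM in controls to 74.0 ± 12.4 against 50.7 ± 13.4 CPM in GOF (SD, 4 mice).

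The log2 fold change of Akr1c13 in GOF was -0.38 ± 0.197 (SE) in females and 0.88 ± 0.199 in males, an interaction of 1.26 ± 0.28. The sex difference was 3.49-fold in controls (log2 fold change -1.8 ± 0.203) and 1.46-fold in GOF (-0.54 ± 0.197), where the groups overlapped and the call was lost in 21 of 27 other settings. The genes most like it were Plscr1 (Pearson r = 0.926), Cage1 (0.923) and Prr16 (0.917), the last of which was also among the 3 most like Akr1cl. Prr16 read 63.9 and 36.8 CPM in female control and GOF and 4.7 and 7.31 CPM in male control and GOF.

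Akr1c12, its near copy, was low in all groups, with 13 to 36 counts in 15 libraries and 176 counts in male control 2. Group means were 0.548 ± 0.198 CPM in female controls, 0.565 ± 0.0834 in female GOF and 0.758 ± 0.271 in male GOF (SD, 4 mice). Male controls averaged 1.82 ± 2.22 CPM, or 0.711 CPM without male control 2, which read 5.15 CPM. No pair of groups was separate in Akr1c12.

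Reads of this pair could be exchanged in counting. The coding sequences of Akr1c12 and Akr1c13 were 96.2% identical, with 37 mismatches over 969 bases, and 134 windows of 100 bases were found word for word in both, 11.5% of those of Akr1c12 and 9.36% of those of Akr1c13. The counting rule for reads that fit both was not given in the sources used here, so the low Akr1c12 values are uncertain. The ratio of Akr1c13 to Akr1c12 by FPKM had medians of 311 (160 to 381) in female controls, 200 (176 to 214) in female GOF, 43.0 (10.4 to 81.3) in male controls and 83.9 (69.6 to 244) in male GOF. Their size depends on the lengths behind the FPKM, 835 bases for Akr1c13 and 1261 bases for Akr1c12. The lowest ratio was in male control 2, and male controls stayed below all female libraries.

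By contrast, Akr1c18 and Akr1d1 shared no window of 100 bases with any other annotated transcript. Akr1cl, Akr1b7, Akr1b8 and Akr1a1 had none either. Akr1c14 shared 4.3% of its windows with the predicted gene Gm18857, and Akr1b3 shared 7.36% with the predicted genes Gm6644 and Gm6736.

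Akr1c14 is a 3-alpha-hydroxysteroid dehydrogenase, which reduces 3-ketosteroids that have passed 5-alpha-reductase. It was low, with 1.35, 1.55, 2.49 and 1.29 CPM in female controls and 0.585, 0.893, 0.597 and 0.515 CPM in female GOF, groups that did not overlap. The log2 fold change was -1.36, with an SE of 0.887 in the fit of all 16 libraries and of 0.355 without male control 2, where 4 of the 10 genes in place of 3 passed the threshold in females. Male controls read 0.831, 25.9, 1.36 and 1.39 CPM and male GOF 1.01, 0.343, 0.651 and 0.423 CPM. The 25.9 CPM was in male control 2, and the male control mean fell from 7.38 to 1.19 CPM without it. The log2 fold change of GOF against control in males was -3.59 ± 0.939 (SE), and -0.97 without male control 2, where the call was lost.

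The likenesses of these 2 low genes were lower when male control 2 and the kidney-marked female control 1 were left out together, and more so for Akr1c12. Akr1c14 was most like Enho over 16 libraries (Pearson r = 0.942), and that was 0.814 over the 14 libraries without them. Akr1c12 was most like Proz, which encodes a plasma protein made in liver (0.912, and 0.59 without them). Proz averaged 8.65 CPM in male controls and at most 0.882 CPM in the other groups.

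Akr1b7 clears isocaproaldehyde, the by-product of cholesterol side-chain cleavage, and is an ACTH-responsive gene of the zona fasciculata. The female controls read 658, 1051, 1085 and 571 CPM and the female GOF adrenals 284, 408, 176 and 193 CPM. All GOF females lay below all control females, with means of 265 ± 107 against 841 ± 265 CPM (SD, 4 mice), 3.17-fold apart, and a log2 fold change of -1.66 ± 0.39 (SE). The male controls read 2643, 1127, 1140 and 780 CPM and the male GOF adrenals 797, 1056, 596 and 490 CPM, which overlapped.

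In males the means of Akr1b7 were 735 ± 249 CPM in GOF and 1423 ± 831 CPM in controls (SD, 4 mice), a log2 fold change of -0.95 ± 0.383 (SE). Male control 1 alone held 2643 CPM. Without that library the control mean was 1016 CPM and the log2 fold change -0.48. Between the sexes in GOF, males were 2.77-fold higher without overlap (log2 fold change 1.47 ± 0.388), while in controls the sexes overlapped (0.76 ± 0.382, and 0.26 ± 0.331 without male control 1).

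The genes most like Akr1b7 were Tmem200a (Pearson r = 0.919), Star (0.919) and Eda (0.911). Star, the protein that brings cholesterol into mitochondria, went from 10125 to 5903 CPM with GOF in females and from 11256 to 7575 CPM in males. The drop in females passed the edgeR quasi-likelihood test with an adjusted p 0.00877 and was not called without female controls 1 and 3 and male control 2 together. That in males had an adjusted p 0.0437 by edgeR and was not called in 15 of 27 other settings, among them those without male control 1, without male control 2 and without male GOF 1, 3 or 4. Mrap, a helper protein of the ACTH receptor, fell from 421 ± 119 to 156 ± 23.3 CPM in females (SD, 4 mice), a log2 fold change of -1.43 ± 0.266, adjusted p 0.000749 by edgeR.

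Akr1b3 is aldose reductase, which turns glucose into sorbitol, and it was the most even member within female controls. These read 177, 179, 184 and 178 CPM, and the female GOF adrenals 305, 355, 358 and 307 CPM. Every GOF female was above every control female, with means of 331 ± 29.1 against 179 ± 2.99 CPM (SD, 4 mice), a log2 fold change of 0.89 ± 0.114 (SE). The male controls read 279, 225, 227 and 228 CPM and the male GOF adrenals 280, 405, 323 and 275 CPM, where male control 1 reached into the GOF range.

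The log2 fold change of Akr1b3 with GOF in males was 0.42 ± 0.113 (SE), and the interaction was -0.47 ± 0.16. Male controls were 1.34-fold above female controls without overlap, while GOF males and females had means of 321 and 331 CPM. Because Akr1b7 was lower and Akr1b3 higher in female GOF, their FPKM ratio went from a median of 7.27 (4.87 to 8.95) in female controls to between 0.744 and 1.74 in female GOF. In males it went from 7.6 (5.18 to 14.4) to 3.37 (2.71 to 4.31). Akr1b3 was most like Prmt1 (Pearson r = 0.942), Mrps11 (0.928) and Taf1c (0.927).

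Akr1b8, an aldehyde reductase of the same chromosome 6 cluster, had group means closer together than those of Akr1b3 or Akr1b7. Female GOF (122 to 180 CPM) lay above female controls (86.3 to 115 CPM), with means of 141 ± 26.3 and 101 ± 12.6 CPM (SD, 4 mice) and a log2 fold change of 0.49 ± 0.235 (SE). Male controls read 223, 106, 107 and 107 CPM and male GOF 82.8 to 143 CPM, with male control 1 again the high library. Without it the male control mean was 107 CPM in place of 136 CPM.

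Akr1a1, the general aldehyde reductase that also supplies gulonate for vitamin C synthesis in mice, had group means of 879 ± 62.0, 938 ± 65.9, 807 ± 110 and 808 ± 82.0 CPM in female control, female GOF, male control and male GOF (SD, 4 mice). The largest of its 4 log2 fold changes in size was -0.22 ± 0.103 (SE), for males against females in GOF, and the other 3 lay between -0.12 and 0.09. Between the sexes in GOF its groups did not overlap, and in the other 3 comparisons they did. Gulo, the last enzyme of vitamin C synthesis, fell with GOF in females from 5.15 ± 0.791 to 0.934 ± 0.91 CPM (SD, 4 mice), adjusted p 0.0149 in the edgeR test.

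Some libraries were the highest or lowest of their group in several members. Male control 1 was the highest male control for Akr1b7, Akr1b3, Akr1b8, Akr1a1 and Akr1cl. Male GOF 2 was the highest male GOF library for Akr1b7, Akr1b3, Akr1b8, Akr1c13 and Akr1cl. Male control 2 was the highest male control for Akr1c18, Akr1c14, Akr1c12, Akr1c13 and Akr1d1, and the lowest for Akr1cl, Akr1b3 and Akr1b8. Female GOF 2 was the highest female GOF library for Akr1c14, Akr1b7 and Akr1b8, and the lowest for Akr1c13, Akr1d1 and Akr1a1.

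**Figure D3:**
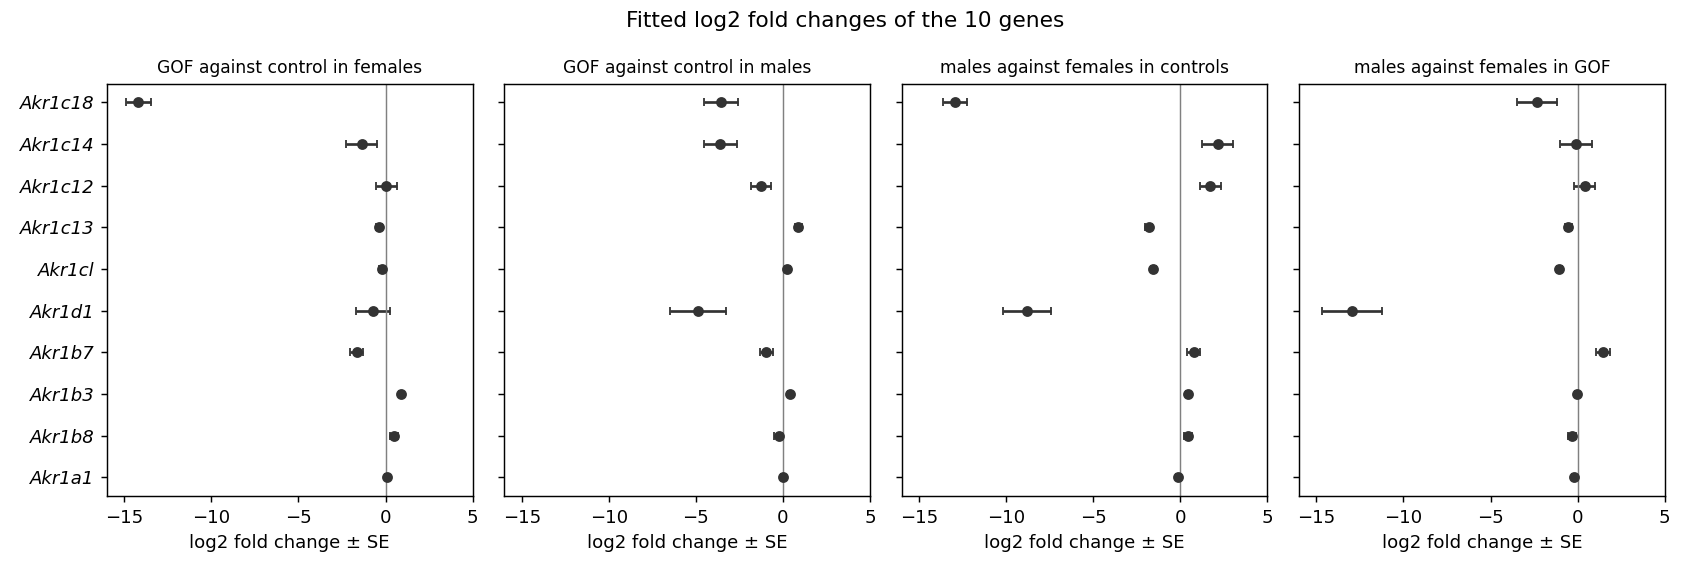
Fitted log2 fold changes of the 10 genes in the 4 comparisons, with bars of 1 SE from the fit of all 16 libraries; positive values are higher in GOF, or in males. Akr1c18 stands at -14.19 for GOF in females and Akr1d1 at -12.95 for males against females in GOF, with wide bars where male counts are near 0.

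On the length-scaled FPKM, the 10 genes together summed to 9126 ± 1455 in female controls, 3743 ± 112 in female GOF, 2631 ± 821 in male controls and 2468 ± 369 in male GOF (SD, 4 mice). In female controls the order was Akr1c18, Akr1cl (1792 ± 225), Akr1d1 (1190 ± 246), then Akr1a1 (708 ± 44.7) and Akr1b7 (630 ± 187), which overlapped each other. In female GOF it was Akr1cl, then Akr1a1 (788 ± 46.8) and Akr1d1 (758 ± 163), which overlapped, then Akr1b7 (209 ± 85.5), whose range overlapped that of Akr1b3 (172 ± 14.6), which overlapped that of Akr1b8 (129 ± 24.7). Akr1c18 was first in the controls and had the lowest mean in GOF, where its range overlapped that of Akr1c14. Akr1d1 lay above Akr1a1 without overlap in controls and overlapped it in GOF, and Akr1c13 (111 ± 5.42) lay above Akr1b3 (89.1 ± 1.53) in controls and, at 89.0 ± 14.4, below Akr1b3 and Akr1b8 in GOF, each without overlap. The order of Akr1c13 and Akr1b3 in controls depends on the lengths behind the FPKM. These were 835 bases for Akr1c13, shorter than its coding sequence of 969 bases, and 1941 bases for Akr1b3. In CPM, without a length, female controls averaged 96.5 for Akr1c13 and 179 for Akr1b3.

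In male controls the leading genes by FPKM were Akr1b7 (1074 ± 610), Akr1a1 (655 ± 78.7) and Akr1cl (461 to 741), each overlapping the next. In male GOF they were Akr1cl (806 ± 91.4), Akr1a1 (711 ± 54.1) and Akr1b7 (603 ± 194), again overlapping. Akr1b7 held 38.8% ± 9.14 of the summed FPKM in male controls and 24.0% ± 4.29 in male GOF, against 6.82% ± 1.23 and 5.61% ± 2.42 in female control and GOF (SD, 4 mice). Akr1cl held 42.6% ± 2.99 in female GOF and 19.7% ± 1.45 in female controls.

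**Figure D4:**
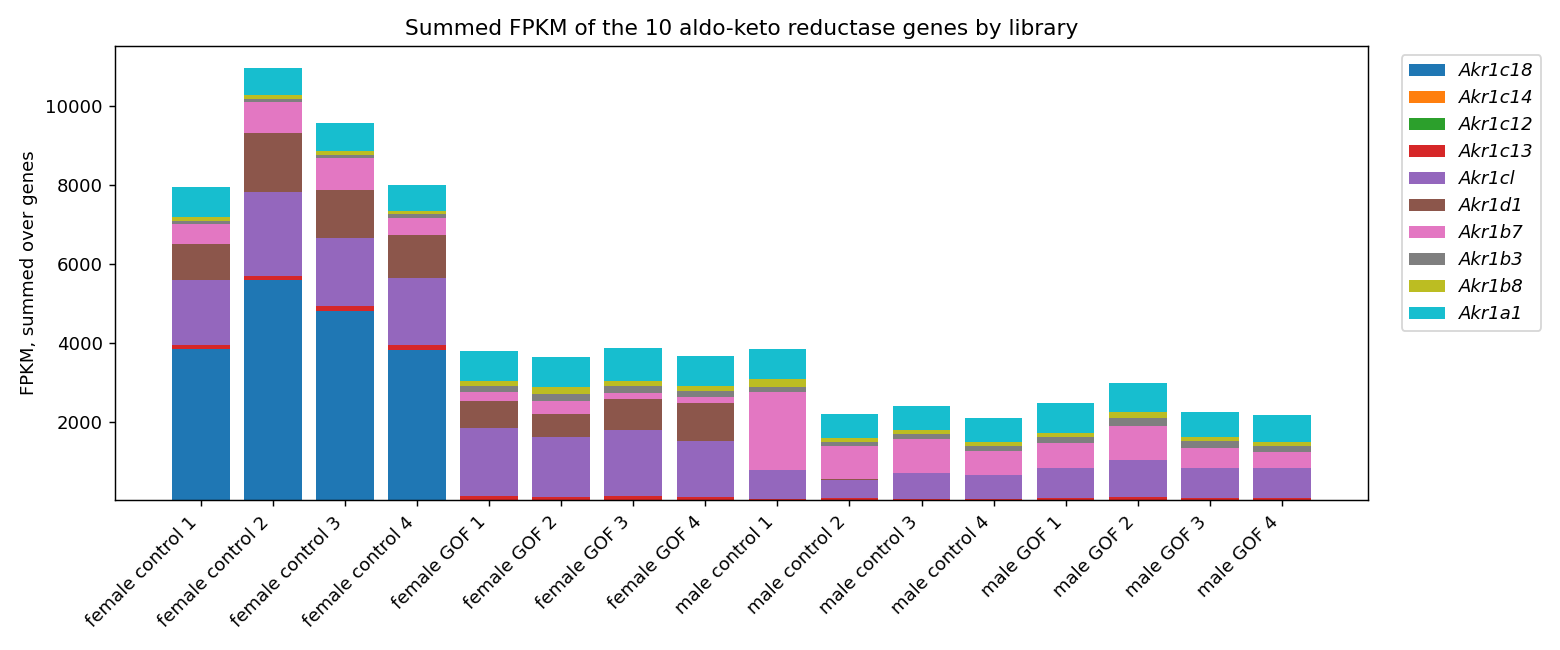
FPKM of the 10 genes stacked for each library, so that the height of a bar is their summed FPKM. The 4 female controls reach 7942 to 10986, with Akr1c18 as the base of the bar, and the other 12 libraries stay at or below 3877.

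The calls on genes outside the members are read beside the share of all tested genes called in each direction. With GOF, 19.0% of all tested genes were called higher and 20.6% lower in females, and 15.2% higher and 21.8% lower in males. Between the sexes, 13.5% were higher and 9.89% lower in male controls, and 13.3% higher and 16.3% lower in male GOF.

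Of 10 further genes of the superfamily, 8 passed the filter. Between GOF and control in females 1 was called higher and 1 lower, and in males 0 higher and 2 lower, with median log2 fold changes of 0.29 and -0.18 (all tested genes: 0.05 and 0.01). Kcnab1, a beta subunit of voltage-gated potassium channels, fell from 3.41 ± 1.29 to 0.982 ± 0.395 CPM in females (SD, 4 mice), a log2 fold change of -1.79 ± 0.321 (SE), adjusted p 0.000534 in the edgeR test. In males it fell from 4.5 ± 1.08 to 2.23 ± 0.32 CPM, adjusted p 0.019, a call lost without male control 2.

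Akr1b10, which lies between Akr1b8 and Akr1b7, was 133 ± 15.7 CPM in female GOF and 103 ± 4.69 CPM in female controls (SD, 4 mice). Its log2 fold change of 0.37 ± 0.144 had an adjusted p 0.0499 in the same test, and 19 of 27 other settings did not call it. Akr1c20 was called in males (adjusted p 0.0348), but its values followed the liver-marked library, at 11.2 CPM in male control 2, and its direction turned without that library. Akr1c21 was called between the sexes in controls (adjusted p 0.0424), with 5.63 CPM in female control 1, the library richest in kidney markers, and the call was lost without it and in 17 of 27 other settings in all. Kcnab2, another channel beta subunit, was called higher in male than in female controls (18.6 ± 16.3 against 7.2 ± 0.699 CPM, SD, 4 mice, adjusted p 0.0375), a call lost in 13 of 27 other settings, among them those without male control 2 and without any 1 of the female controls. Without female control 1 and male control 2 together, 1 of the 8 genes was called in females, 0 in males and 0 between the sexes in controls.

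Among 15 genes of steroid reduction and interconversion, 12 were tested, and with GOF 2 were called higher and 7 lower in females and likewise 2 and 7 in males. Their median log2 fold changes were -0.55 and -0.37. Srd5a1, a 5-alpha-reductase that acts on the same steroid double bond as Akr1d1 with the other stereochemistry, rose from 16.3 ± 4.07 to 79.1 ± 18.9 CPM in females (SD, 4 mice), a log2 fold change of 2.28 ± 0.369 (SE), adjusted p 0.000266 in the edgeR test. In males it rose from 14.0 ± 2.15 to 55.0 ± 40.2 CPM, by 1.97 ± 0.366, adjusted p 0.000787. Both calls were kept in all 27 other settings.

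Srd5a2, the other 5-alpha-reductase, had the opposite sex bias to Akr1d1. It was 1468 ± 326 CPM in male controls and 109 ± 23.6 CPM in female controls (SD, 4 mice), a log2 fold change of 3.75 ± 0.252, adjusted p 2.56e-07 in the edgeR test. In female GOF it rose to 313 ± 78.2 CPM, and its interaction was -1.71 ± 0.322, adjusted p 0.00887. Hsd17b7, which works both on estrone and in cholesterol synthesis, was female-biased in controls (90.6 ± 33.1 against 17.0 ± 8.69 CPM) and fell to 22.0 ± 1.87 CPM in female GOF, by 2.04 on the log2 scale, adjusted p 0.000223 by edgeR.

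Between the sexes, 2 of the 12 were called higher and 5 lower in male controls, a count that went from 7 to 3 without female control 1 and male control 2 together, and 3 higher and 3 lower in male GOF. Hsd11b2, which inactivates glucocorticoids and is abundant in kidney, was called lower in female GOF (0.229 ± 0.081 against 8.23 ± 12.5 CPM in female controls, SD, 4 mice, adjusted p 0.000867 in the edgeR test), where the controls include the kidney-marked libraries. Female control 1 held 26.8 CPM, and without it the female control mean was 2.02 CPM and the call was kept.

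In the steroid synthesis list all 14 genes were tested. With GOF, 2 were called higher and 3 lower in females and 2 higher and 4 lower in males, with medians of -0.13 and -0.18. Cyp11b2, aldosterone synthase, fell from 231 ± 60.8 to 26.5 ± 10.2 CPM in females (SD, 4 mice), by 3.12 on the log2 scale, adjusted p 6.75e-05 in the edgeR test. Hsd3b1, which makes progesterone, the substrate of Akr1c18, rose in females from 9482 ± 354 to 17609 ± 2440 CPM, a log2 fold change of 0.89 ± 0.208, adjusted p 0.00348, a call lost without female controls 1 and 3 and male control 2 together. Nr5a1, the gene of steroidogenic factor 1, rose in males from 483 ± 59.1 to 990 ± 238 CPM, with a log2 fold change of 1.04 ± 0.224 and an adjusted p 0.00224. Cyp11b2, Hsd3b1 and Nr5a1 were each called in the same direction in the other sex. By edgeR, the adjusted p was 0.000565 for Cyp11b2 in males, 0.0301 for Hsd3b1 in males and 0.00955 for Nr5a1 in females. The Hsd3b1 call in males was lost in 7 of 27 other settings and the Nr5a1 call in females in 1.

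Between the sexes, 1 steroid synthesis gene was called higher and 1 lower in male controls, and 2 higher and 4 lower in male GOF. Fdx1, the electron carrier of mitochondrial steroid enzymes, was higher in males in GOF (1203 ± 159 against 598 ± 160 CPM, SD, 4 mice), with a log2 fold change of 1.01 ± 0.205 and an adjusted p 0.00191 in the edgeR test. Nr5a1 was lower in male than in female controls, with a log2 fold change of -1.1 ± 0.224, adjusted p 0.00284. Both calls were lost in 1 of 27 other settings, the fit with a covariate for the range of the number in the sample title. These numbers fall into 4 ranges, and what they stand for was not given in the sources used here. The lowest range holds both sexes, with female control 1 and female GOF 1 as its only females. Each other range holds a single sex, so sex and range cannot be told apart for those libraries.

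Of 15 genes that handle carbonyls, aldehydes and polyols, all tested, 0 were called higher and 5 lower with GOF in females, and 1 higher and 4 lower in males, with medians of -0.07 and -0.33. Aldh1a1, an aldehyde dehydrogenase that makes retinoic acid, fell in females from 92.7 ± 28.1 to 12 ± 2.99 CPM (SD, 4 mice), a log2 fold change of -2.95 ± 0.717, adjusted p 0.00509 in the edgeR test. In males it rose from 67.7 ± 27.7 to 661 ± 494 CPM, a log2 fold change of 3.29 ± 0.718, adjusted p 0.00264, and the interaction was 6.23 ± 1.01, adjusted p 0.00455. Aldh1a3, a related dehydrogenase, fell in both sexes, by 2.5 in females (adjusted p 1.6e-06) and by 3.43 in males (adjusted p 1.98e-07) on the log2 scale.

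Adh1 and Adh7, alcohol dehydrogenases that act in the reverse direction on the same kind of substrate, were female-biased like Akr1cl. Adh1 was 3407 ± 356 CPM in female and 764 ± 520 CPM in male controls (SD, 4 mice), adjusted p 0.0131 in the edgeR test, a call lost with the title-number range as a covariate and without female controls 1 and 3 and male control 2 together. In GOF it was 3512 ± 500 against 328 ± 334 CPM, a log2 fold change of -3.42 ± 0.588, adjusted p 0.00065. Adh7 was 320 ± 54.3 CPM in female and 38.7 ± 31.0 CPM in male GOF, at -3.05 ± 0.466 and an adjusted p 0.000278. Of the 15 genes, 1 was called higher and 5 lower in males than in females in controls. The counts were the same in GOF, but not all of the genes. The higher gene was Aldh1a3 in controls and Aldh1a1 in GOF. Adh1, Adh7 and Aldh2 were called lower in both, and the other lower genes differed.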

How the data were processed

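Total RNA of frozen adrenal glands was extracted and sequenced as 150 bp paired-end reads, with a RIN of at least 7.0, per the labels' protocols. The authors deposited a table of read counts per gene, not normalized, and a table of FPKM values, which they scaled by gene length and library size. Bowtie2 2.2.3, TopHat2 2.0.12, HTSeq 0.6.1 and DESeq 1.18.0 are named in the submitters' processing notes, without roles. The genome build, the annotation, the use of strand and the rule for reads that match several genes were not given in the sources used here. The count and FPKM columns of all 16 libraries were mapped to samples, and 54723 of 54838 gene identifiers were found in GENCODE mouse release 21.

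Counts were tested with edgeR 4.0.16 (R 4.3.3): TMM scaling, the default filter on low counts, a robust quasi-likelihood fit of all 16 libraries with a mean per group, and Benjamini-Hochberg adjustment over 18214 genes with a threshold of 0.05. CPM use TMM-scaled totals, and FPKM are used wherever levels of different genes are compared. Alternatives were DESeq2 1.42.0, RLE and upper-quartile scaling, no filter, fits of only the groups compared, limma 3.58.1 on log2(FPKM + 1) and log2(FPKM + 0.1) with genes of mean FPKM under 0.5 dropped or kept, a covariate for the range into which the number in the sample title falls, 1 library removed at a time, and libraries with kidney or liver transcripts left out.

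The members and the gene lists were chosen with earlier results of these data known, including the liver, kidney and other marker lists. All members are named. Of each pathway list and comparison, the called genes with the 3 largest log2 fold changes could be named with values. A few other called genes of those lists are also given. Star is given beside the member it concerns, and Hsd3b1 in males and Nr5a1 in females beside their values in the other sex. For Akr1c18, Akr1d1, Akr1cl, Akr1c13, Akr1b7 and Akr1b3, the 3 genes with the highest Pearson correlation of log2 CPM over 16 libraries were named. For Akr1c14 and Akr1c12 only the highest was named, and for Akr1b8 and Akr1a1 none. Marker lists are given as summed CPM, and upstream sequences were searched with Biopython 1.88.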

Additional observations from a re-analysis of the deposited data

Results flagged for a closer look

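In 6 of the 40 groups of 4 libraries examined (10 genes in 4 groups), a single library lay so far from the other 3 that its gap, as a part of the group's whole range, exceeded Dixon's 95% critical value. Chance gives such a gap in about 1 in 20 independent groups, but these groups share libraries and the genes were picked on these values, so nothing is read from the number. Male control 2 was that library for Akr1c14 (25.9 CPM), Akr1c12 (5.15 CPM) and Akr1d1 (17.2 CPM), and it is also the library with the highest liver marker level. Male control 1 was that library for Akr1b3 (279 CPM) and Akr1b8 (223 CPM). Male GOF 2 was that library for Akr1cl (1153 CPM). The part of liver transcripts in the values of male control 2 was not tested.

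The interaction of sex and genotype passed the threshold of the all-gene fit in 3 genes of the pathway lists. Of the members, picked with results known and so given as a description, Akr1c18 had a log2 interaction of 10.63 and Akr1c13 one of 1.26. All male GOF libraries were at or under the floor of 3 counts for Akr1c18, which did not pass in 7 of 26 other settings, among them those without female control 3 and without any 1 of the male GOF libraries. Outside the members, edgeR's quasi-likelihood test gave -1.71 for Srd5a2 (adjusted p 0.00887), 2.01 for Hsd17b1 (adjusted p 0.0203) and 6.23 for Aldh1a1 (adjusted p 0.00455). The Hsd17b1 call was lost without female control 1 and male control 2 together, while the other 2 were kept there.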

How the results depend on the processing

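Of the 1340 member log2 fold changes computed under other settings, 1275 moved by less than the spread between replicates, 62 moved by more and 3 turned sign in a called value: Akr1d1 for GOF against control in males, at 1.03 without male control 2 (-6.5 to 1.03 over the libraries left out in turn), 1.01 without it and female control 1, and 1.01 without these and female control 3. Those that moved by more were in Akr1c14 (18), Akr1c12 (15), Akr1d1 (15), Akr1c18 (12) and Akr1b8 (2). With the FPKM-based fits Akr1c18 for GOF in males was -0.5 (pseudocount 1), since values near 0 were then compressed by the pseudocount. Member calls for GOF in females (Akr1c18, Akr1b7, Akr1b3) were kept in all 27 other settings. In the male comparison 5 other settings lost Akr1c18, 8 lost Akr1c14, 12 lost Akr1d1 and 2 lost Akr1b3, and the Akr1c18 interaction was lost in 7 of 26, among them the fit without female control 3. Between the sexes, Akr1b3 in controls was lost with the title-number range as a covariate, where the single library of its own range, female GOF 4, adds nothing. Without female controls 1 and 3 and male control 2 together, Akr1b3 in controls and the Akr1c13 interaction were lost.

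Counts of all genes called were 7217 (GOF in females), 6725 (GOF in males), 4267 (sexes in controls), 5394 (sexes in GOF) and 766 (interaction). Leaving out 1 library gave 5758 to 7280, 5223 to 6700, 2657 to 4840, 4331 to 5612 and 359 to 960, with the lowest without female control 3 for the first, the third and the interaction. With a log2 fold change of at least 1 they were 3121, 3366, 1405, 1814 and 381. With the title-number range the sexes gave 1311 and 1336 and the interaction 442. Without female controls 1 and 3 and male control 2, 4428, 1706 and 182 were called for GOF in females, the sexes in controls and the interaction, and without female control 1 and male control 2 the interaction gave 424. DESeq2 gave 1432 for the interaction, no filter 408 and limma without a filter 407. Calls in the higher direction made up 48.0%, 41.1%, 57.8%, 44.9% and 37.9%, against 60.7%, 61.3%, 60.4%, 53.6% and 48.8% with limma on log2(FPKM + 1) and 42.7%, 51.2%, 49.9%, 55.2% and 62.6% with upper-quartile scaling. The median log2 fold change of all genes for GOF was 0.05 and 0.01 in the main fit and up to 0.12 with limma on FPKM.

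No paired analysis was possible because the replicate numbers follow accession order and pair no samples. Depth limited Akr1c18 and Akr1d1 in males: all male GOF libraries were at or under the floor of 3 counts for Akr1c18, and ratios against male groups rest on few counts for both genes.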

Other observations

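Values of 2 other genes of the chromosome 13 cluster follow, chosen after they were seen. Gm9973, a transcribed pseudogene at 4350397 to 4391265, averaged 14.1 ± 3.48 CPM in female controls, 3.91 ± 0.452 in female GOF, 24.0 ± 9.45 in male controls and 22.3 ± 14.3 in male GOF (SD, n = 4), with no overlap between the female groups. Gm2123, a processed pseudogene at 4168145 to 4170980, between Akr1c18 and Akr1c13, had 0.387 to 1.82 CPM in the 4 female controls and 0 counts in the other 12 libraries.

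Of the 10 other superfamily genes, Akr1c6 and Akr1c19 did not pass the filter on low counts. Akr1c6, a 17-beta-hydroxysteroid dehydrogenase of liver, had 2382 counts (69.7 CPM) in male control 2 and at most 31 counts in any other library. Akr1c19 had 163 counts in female control 1, 119 in male control 2, 24 in female control 3 and at most 5 elsewhere. These are the libraries in which liver or kidney markers were high, and the part of such transcripts in these values was not tested.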
